A study of Homo sapiens with 16 samples.

Results

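Contractile smooth muscle genes encode the thin and thick filament proteins by which smooth muscle shortens. The 10 genes described here are ACTA2, ACTG2, TAGLN, CNN1, TPM1, TPM2, CALD1, SMTN, MYL9 and MYLK. They were listed by name, with no threshold on a measured value, although earlier results of these data were known, and all 10 were found by Ensembl identifier among the 60448 genes counted. A filter on low counts kept 9 of the 10 members and 18285 genes in all. CNN1 was the member that did not pass.

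In smooth muscle, calcium-bound calmodulin activates myosin light chain kinase (MYLK), which phosphorylates the regulatory light chain (MYL9) and lets myosin pull on filaments of smooth muscle actin (ACTA2, ACTG2). Tropomyosins (TPM1, TPM2), caldesmon (CALD1), calponin (CNN1), transgelin (TAGLN) and smoothelin (SMTN) lie on those actin filaments. Most of these genes are classical targets of serum response factor (SRF), which binds the CArG box in their promoters together with the coactivator myocardin or the actin-sensing coactivators MRTFA and MRTFB. The same genes are expressed in myofibroblasts and in mammary myoepithelial cells, and several are raised in many cells that pass through an epithelial to mesenchymal transition.

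The cells were HMLER, an established line of mammary epithelial cells from a human donor that carries introduced immortalizing and transforming genes, and RNA was sequenced from 16 libraries in 8 groups of 2. Of the edited groups, which derive from C1, sgEED-Mes and sgEED-Epi are mesenchymal and epithelial cells with the genotype EED-KO. EED is a core subunit of the Polycomb complex PRC2, which writes repressive histone methylation. The groups sgKMT2D-Mes and sgKMT2D-Epi are mesenchymal and epithelial cells with the genotype KMT2D-KO, and KMT2D is an activating histone methyltransferase of the COMPASS family. The group sgControl is C1 with a control guide and wild-type genotype. C2-Mes and C2-Epi are the mesenchymal and the plastic epithelial state of unedited C2 cells, and C1 is the unedited, stable epithelial state. All groups share the HMLER background and its introduced oncogenes. The labels do not tell whether both libraries of a group came from different cultures. The p-values therefore reflect no more than the spread of these libraries, which may be technical. The labels also do not say whether C1, C2 or a guide's epithelial and mesenchymal cells are single clones, so clone and state cannot be told apart. In such bulk RNA, fewer cells with a transcript and less transcript per cell cannot be told apart.

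Promoters of 4 of the 5 members in which a CArG box was found are shown, because this is the element for which the gene family is known. RefSeq promoter windows (GRCh38.p14, the 250 bases before an annotated start) were matched for 8 of the 10 members, in 16 windows; none was used for TAGLN and MYL9. A CArG box has CC, 6 bases of A or T and GG, and reads the same on both strands. An exact box was found in 3 members, and a box with 1 G or C in its core in ACTA2 and CALD1, so that 5 of the 16 windows held either form; the CALD1 window, with CCTAAAGAGG, is not printed. Across 35114 windows of the same length, 1.16% held an exact box and 7.04% held either form. Capitals mark the CArG boxes and, in ACTA2, the M-CAT element GGAATG, an element read by TEAD factors that was searched as CATTCC on both strands and found in 11.9% of all windows. The first sequence lies on the minus strand at chr10:88952774-88953023, within the gene, before one of the ACTA2 starts. The second lies on the plus strand at chr2:73892758-73892943, within the gene, before one of the ACTG2 starts. The third lies on the plus strand at chr22:31084746-31084995, within SMTN. The fourth lies on the minus strand at chr3:123620623-123620652, within MYLK. It precedes an internal start near the end of that gene, which runs on the minus strand from 123884331 to 123610049. The box is thus not before the beginning of the gene, and which MYLK product starts there was not examined.
ACTA2: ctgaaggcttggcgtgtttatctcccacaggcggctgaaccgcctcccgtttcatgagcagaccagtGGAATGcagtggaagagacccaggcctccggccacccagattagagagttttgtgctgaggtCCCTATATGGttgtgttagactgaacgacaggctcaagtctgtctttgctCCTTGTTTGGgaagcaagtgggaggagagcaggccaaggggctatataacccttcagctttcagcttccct
ACTG2: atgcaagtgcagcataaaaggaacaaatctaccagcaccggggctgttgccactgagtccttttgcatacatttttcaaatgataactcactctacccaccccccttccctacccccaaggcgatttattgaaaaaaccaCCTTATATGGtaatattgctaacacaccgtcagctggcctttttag
SMTN: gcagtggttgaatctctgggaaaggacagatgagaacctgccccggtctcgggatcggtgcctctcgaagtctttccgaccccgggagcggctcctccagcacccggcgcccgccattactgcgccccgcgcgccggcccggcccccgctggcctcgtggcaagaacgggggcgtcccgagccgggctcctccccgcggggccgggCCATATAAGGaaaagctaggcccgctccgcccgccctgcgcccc
MYLK: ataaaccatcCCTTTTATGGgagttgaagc

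ACTG2 has a second exact box, CCTTTTTAGG, that begins 73 bases before the start, at the end of the stretch printed, which lacks its last base. The boxes printed begin 121 and 71 bases before the start in ACTA2, 110 in ACTG2, 44 in SMTN and 94 in MYLK. A match is only a run of letters, and no binding was measured.

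Total counts ran from 18872124 to 31950649 per library, so that 3 counts correspond to 0.0958 to 0.175 CPM (CPM, counts scaled to library size with TMM, is the unit of all levels below unless stated). The C2-Mes replicates stood apart, with an SD of 0.655 for the log2 differences between replicates, against at most 0.363 in the other groups. The fit shared the spread of each gene over all 8 groups, so SEs and p-values of C2-Mes comparisons can understate the C2-Mes spread. The deposited name of C2-Mes replicate 1 reads as a repeat preparation, and it had the fewest counts and the highest mitochondrial share (12.5%). Comparisons with C2-Mes name the members whose calls change without it. The transcript of EED stood at 5.22 and 5.50 CPM in sgEED-Mes and at 26.7 and 29.6 in sgEED-Epi, against 26.6 and 21.6 in sgControl. That of KMT2D stood at 86.6 and 76.8 CPM in sgKMT2D-Mes and at 124 and 127 in sgKMT2D-Epi, against 89.9 and 70.9 in sgControl. The EED transcript was thus low in sgEED-Mes but not in sgEED-Epi, and that of KMT2D was not below sgControl. An edit need not lower its transcript, so these levels do not check the genotypes, and groups are named by their labels throughout. Epithelial markers (CDH1, EPCAM, DSP, GRHL2 and ESRP1) fell in the transitions, meaning a line's mesenchymal against its epithelial cells: 4 of 5 in sgEED, where DSP did not pass, and 5 of 5 in sgKMT2D and in C2. These 5 genes summed to 911 to 1092 CPM in sgEED-Mes, where those other than DSP had at most 1.49 CPM each. The sum was 51.1 to 52.5 CPM in sgKMT2D-Mes and 3.71 to 7.66 CPM in C2-Mes.

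Summed over the 10 genes, levels came to 5096 and 5202 CPM in sgEED-Mes and 1750 to 1794 CPM in sgKMT2D-Mes. In C2-Mes the sum was 1007 to 1015 CPM. The epithelial groups ranged from 743 to 1192 CPM.

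**Figure D1:**
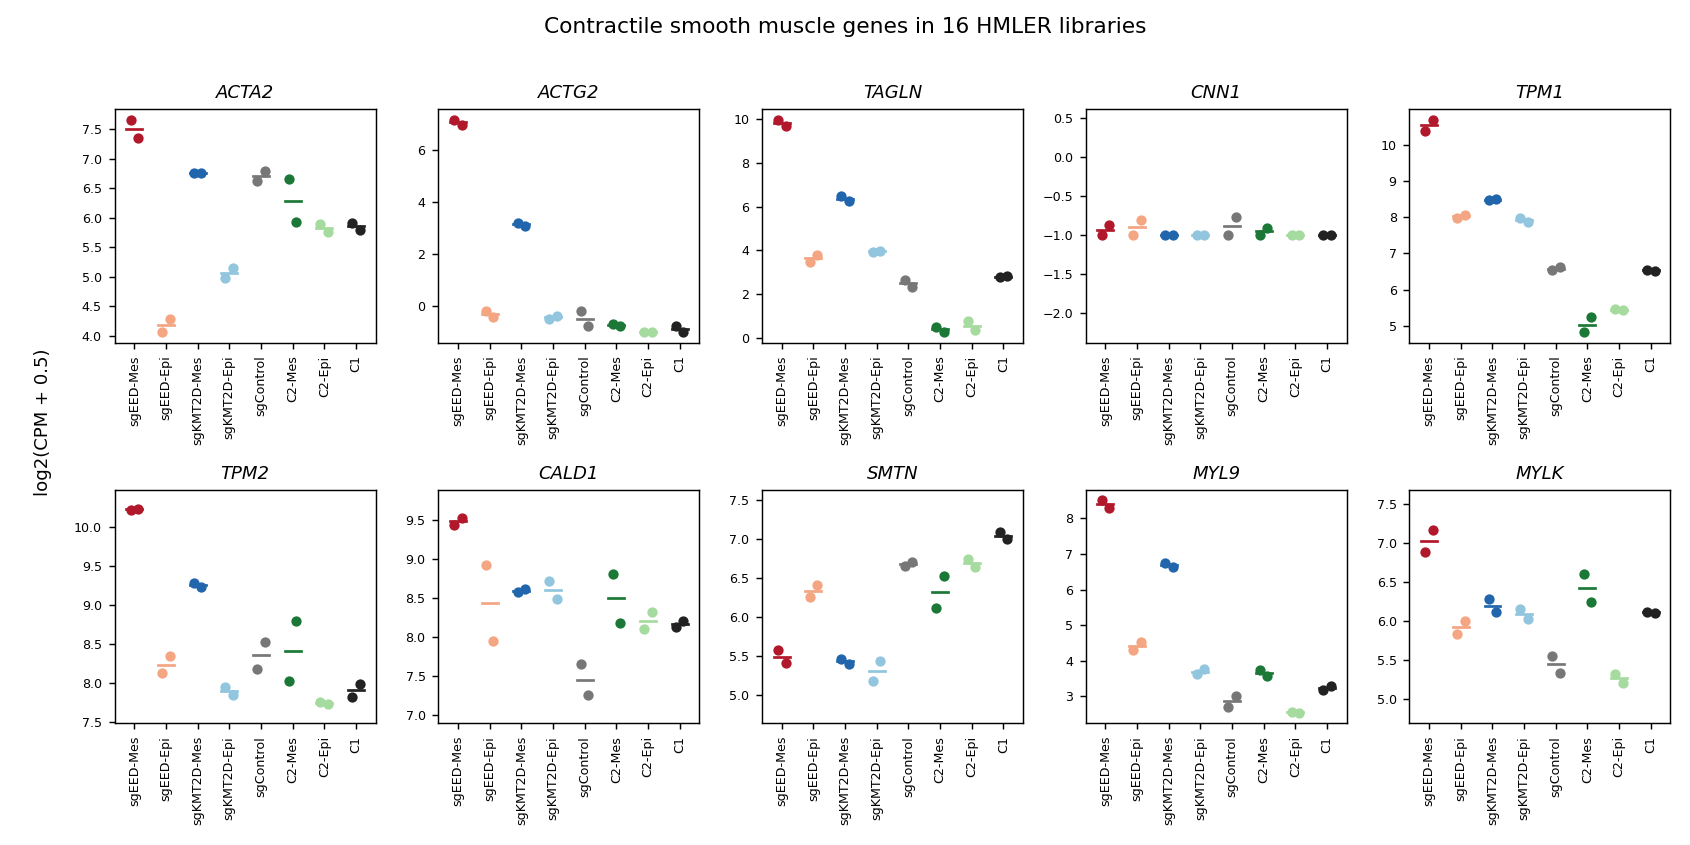
Each point is 1 of 16 libraries and each bar a group mean of log2(CPM + 0.5), for the 10 contractile genes by group. The sgEED-Mes libraries are the highest of all for 8 genes and among the lowest for SMTN, and CNN1 stays at the bottom of the scale in every group.

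The first comparison asked how the genes differed between the mesenchymal and epithelial cells of the EED guide. All 9 measured members differed in sgEED-Mes against sgEED-Epi: 8 rose and SMTN fell. Over all genes tested 19.2% rose and 17.3% fell (36.5% in either direction). Among the members that rose, ACTG2 had at most 10 counts in any library outside sgEED-Mes and sgKMT2D-Mes. It passed the filter through these groups, where it was high, so its place in this count is not independent of the result. The same holds wherever ACTG2 is counted as called in a comparison of either group. The median log2 change was 2.52 over the members and 0.01 over all genes. Without scaling beyond library totals the median of all genes shifted by -0.22, and 35.9% instead of 52.5% of the called genes were higher, while no member changed direction. A gene was called at an adjusted p under 0.05 (edgeR quasi-likelihood test, Benjamini-Hochberg over 18285 genes).

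Both smooth muscle actins rose. ACTG2 (ENSG00000163017, chromosome 2, 73892314 to 73919865, plus strand), the gamma actin of gut and other visceral muscle, had 145 and 126 CPM in sgEED-Mes, against 0.381 and 0.246 CPM in sgEED-Epi. Behind these levels lay 4005 and 2859 counts in sgEED-Mes and 10 and 7 in sgEED-Epi, a log2 change of 8.75 ± 0.36 (SE; adjusted p = 1.5e-09). ACTA2 (ENSG00000107796, chromosome 10, 88935074 to 88991339, minus strand), the alpha actin of vascular muscle and myofibroblasts, had 202 and 163 CPM in sgEED-Mes, against 16.2 and 19.1 CPM in sgEED-Epi. Its log2 change was 3.37 ± 0.22 (SE; adjusted p = 4.1e-08). The ranges of the 2 groups were far apart for both actins. Actin genes are nearly identical in their coding sequence, and how reads shared between them were counted is not given in the sources used here, so their levels are uncertain. The cytoplasmic actins ACTB (log2 change 0.19, adjusted p = 0.47) and ACTG1 (0.21, adjusted p = 0.33) did not pass the test.

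The proteins that lie along actin split. TAGLN (ENSG00000149591, chromosome 11, 117199321 to 117204782, plus strand), which encodes the actin cross-linker transgelin, had 1008 and 814 CPM in sgEED-Mes, against 10.7 and 13.4 CPM in sgEED-Epi. This was a log2 change of 6.24 ± 0.22 (SE; adjusted p = 1.9e-10), a 75.4-fold difference. Exons of ACTA2 overlap those of FAS (log2 change -0.07, adjusted p = 0.90) on the other strand, and strand use in counting is not given in the sources used here. Exons of TAGLN overlap those of PCSK7 on the other strand, whose log2 change was 0.47 and did not pass the test, at 59.1 CPM in sgEED-Mes. TPM1 (ENSG00000140416, chromosome 15, 63042632 to 63071915, plus strand) had 1329 and 1659 CPM in sgEED-Mes, against 253 and 267 CPM in sgEED-Epi (log2 change 2.52 ± 0.16 SE, adjusted p = 2.2e-08). TPM2 (ENSG00000198467, chromosome 9, 35681992 to 35690121, minus strand) had 1186 and 1202 CPM in sgEED-Mes, against 278 and 323 CPM in sgEED-Epi (log2 change 1.99 ± 0.21 SE, adjusted p = 3.9e-06). Both tropomyosin genes make muscle and non-muscle isoforms, which counts per gene cannot separate.

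CALD1 (ENSG00000122786, chromosome 7, 134744252 to 134970728, plus strand), the gene of caldesmon, which holds back myosin on actin, had 695 and 739 CPM in sgEED-Mes, against 483 and 246 CPM in sgEED-Epi. The epithelial libraries lay far apart, and the rise of 0.98 ± 0.27 (SE; adjusted p = 0.011) was lost in 4 of 23 alternatives. Among these were fitting only these groups (0.87, adjusted p = 0.11) and leaving out sgEED-Epi replicate 2 (0.50). SMTN (ENSG00000183963, chromosome 22, 31064105 to 31104757, plus strand), whose product smoothelin is found in contractile smooth muscle, went the other way. It had 47.1 and 41.9 CPM in sgEED-Mes, against 76.2 and 84.9 CPM in sgEED-Epi, and fell by 0.86 on the log2 scale (SE 0.16, adjusted p = 0.00063). CNN1 (ENSG00000130176, chromosome 19, 11538717 to 11550323, plus strand), the gene of calponin, had 0 and 1 counts in sgEED-Mes and 0 and 2 in sgEED-Epi, at or below the floor of 3 counts. It had at most 2 counts in any of the 16 libraries and 0 in 12 of them. Its expression was not detectable at this depth.

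On the myosin side, MYL9 (ENSG00000101335, chromosome 20, 36541484 to 36551447, plus strand) had 365 and 314 CPM in sgEED-Mes, against 19.2 and 22.5 CPM in sgEED-Epi. Its log2 change of 4.02 ± 0.17 (SE; adjusted p = 6.2e-10) was a 16.3-fold difference. MYLK (ENSG00000065534, chromosome 3, 123610049 to 123884331, minus strand), the kinase that acts on the MYL9 product, had 118 and 143 CPM in sgEED-Mes, against 56.5 and 63.4 CPM in sgEED-Epi. It rose by a log2 change of 1.12 ± 0.16 (SE; adjusted p = 7.3e-05). MYLK codes for long and short kinases and for telokin, which the counts do not separate.

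The same question was asked of the KMT2D guide. In sgKMT2D-Mes against sgKMT2D-Epi 6 members rose, while 26.8% of all genes rose and 24.0% fell (50.8% in either direction). The 3 members that did not pass were CALD1, SMTN and MYLK. The median log2 change was 1.36 over the members and 0.02 over all genes.

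MYL9 had 107 and 98.2 CPM in sgKMT2D-Mes, against 11.7 and 13.2 CPM in sgKMT2D-Epi, a log2 change of 3.04 ± 0.16 (SE; adjusted p = 3.9e-09). ACTG2 had 8.83 and 8.10 CPM in sgKMT2D-Mes, against 0.213 and 0.279 CPM in sgKMT2D-Epi, which are 211 and 185 counts against 6 and 7. Its log2 change was 5.09 ± 0.37 (SE; adjusted p = 1.7e-07), so ACTG2 rose by a large factor to a low level. TAGLN had 87.9 and 76.8 CPM in sgKMT2D-Mes, against 14.8 and 15.4 CPM in sgKMT2D-Epi, a log2 change of 2.45 ± 0.19 (SE; adjusted p = 1.6e-07). ACTA2 had 107.7 CPM in both sgKMT2D-Mes libraries, against 30.9 and 35.0 CPM in sgKMT2D-Epi, a log2 change of 1.71 ± 0.21 (SE; adjusted p = 1.2e-05). In these 4 genes the groups were well separated.

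TPM2 had 620.1 and 599.7 CPM in sgKMT2D-Mes, against 247 and 228 CPM in sgKMT2D-Epi, a log2 change of 1.36 ± 0.20 (SE; adjusted p = 7.7e-05). TPM1 had 359 CPM in both sgKMT2D-Mes libraries, against 253 and 233 CPM in sgKMT2D-Epi. Its log2 change of 0.56 ± 0.15 (SE; adjusted p = 0.006) was lost without sgKMT2D-Epi replicate 2 (0.42, adjusted p = 0.082). CALD1 (log2 change -0.01 ± 0.27 SE, adjusted p = 0.99), SMTN (0.12 ± 0.16, adjusted p = 0.56) and MYLK (0.11 ± 0.16, adjusted p = 0.60) had groups that overlapped. SMTN stood at 43.5 and 41.7 CPM in sgKMT2D-Mes and at 35.8 and 42.9 CPM in sgKMT2D-Epi, the lowest level of any epithelial group.

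The unedited C2 cells gave the third transition. In C2-Mes against C2-Epi 4 members rose and 1 fell, while 21% of all genes rose and 18.6% fell (39.6% in either direction). The median log2 change was 0.51 over the members and 0.01 over all genes. Without scaling beyond library totals the median of all genes shifted by -0.21, and 37.9% instead of 53.1% of the called genes were higher.

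MYL9 had 12.9 and 11.4 CPM in C2-Mes, against 5.38 and 5.30 CPM in C2-Epi, a log2 change of 1.18 ± 0.16 (SE; adjusted p = 4.7e-05). MYLK had 96.8 and 75.4 CPM in C2-Mes, against 39.5 and 36.4 CPM in C2-Epi, a log2 change of 1.18 ± 0.16 (SE; adjusted p = 3.9e-05). In both genes each C2-Mes library exceeded each C2-Epi library, and their calls held under all alternatives tried. With only the C2 libraries fitted, the adjusted p was 0.022 for MYL9 and 0.023 for MYLK. TPM2 had 259 and 441 CPM in C2-Mes, against 215 and 211 CPM in C2-Epi, and its rise of 0.72 (adjusted p = 0.011) was lost in 5 of 23 alternatives. Among these were no scaling beyond library totals (0.52, adjusted p = 0.069) and leaving out C2-Mes replicate 2 (0.24). TPM1 had 27.9 and 37.4 CPM in C2-Mes, against 43.4 and 43.2 CPM in C2-Epi, a fall by 0.40 on the log2 scale (adjusted p = 0.047) that was lost with only the C2 libraries fitted (adjusted p = 0.26) and without C2-Mes replicate 1 (-0.32, adjusted p = 0.076).

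The other called member, ACTG2, had 2 and 3 counts in C2-Mes and 0 in both C2-Epi libraries. These counts do not exceed the floor of 3, no fold is given, and the call (adjusted p = 0.042) was lost when any of the 4 C2 libraries was left out (adjusted p = 0.069 to 0.15). TAGLN was near the bottom of its range in both states, with 0.935 and 0.703 CPM in C2-Mes, against 1.19 and 0.769 CPM in C2-Epi (log2 change -0.31, adjusted p = 0.45). ACTA2 had 100.4 and 60.2 CPM in C2-Mes, against 58.8 and 53.5 CPM in C2-Epi (log2 change 0.51, adjusted p = 0.058). Without C2-Mes replicate 2 the ACTA2 change was 0.80 (adjusted p = 0.00065), and without C2-Mes replicate 1 it was -0.01 (adjusted p = 0.98). SMTN (-0.36, adjusted p = 0.079) and CALD1 (0.32, adjusted p = 0.38) did not pass. SMTN was called lower in 13 of 23 alternatives, among them no scaling beyond library totals (-0.57, adjusted p = 0.017) and leaving out C2-Mes replicate 2 (-0.63, adjusted p = 0.0026).

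**Figure D2:**
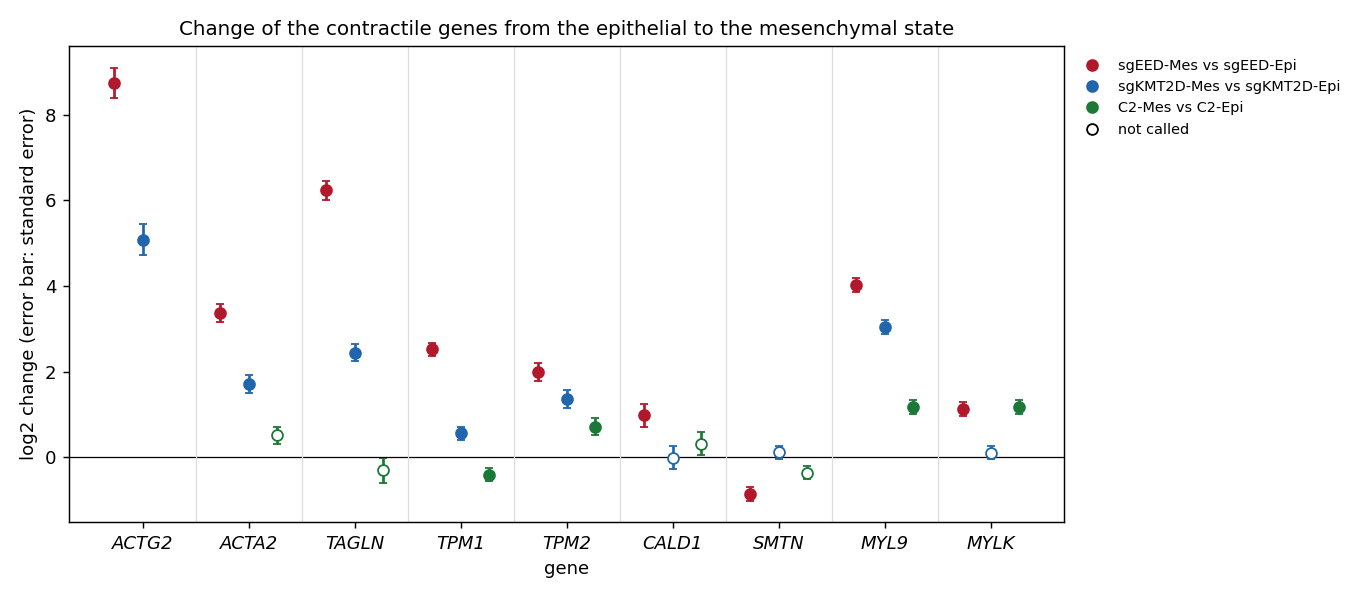
Log2 change of 9 contractile genes between mesenchymal and epithelial cells in the sgEED, sgKMT2D and C2 transitions; bars are standard errors and open circles mark genes not called. ACTG2 and TAGLN span the widest range among transitions (TAGLN 6.24, 2.45 and -0.31), and ACTG2 is not drawn for C2, where it had at most 3 counts in a library.

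Whether the transitions differed was tested directly, as a difference of differences. The sgEED change was higher than the C2 change in 5 members, while 10.2% of all genes were higher and 10.9% lower in this contrast (21.1% in either direction). TAGLN differed by 6.54 on the log2 scale (adjusted p = 3.2e-08), TPM1 by 2.93 (3.5e-07), ACTA2 by 2.86 (8.5e-06), MYL9 by 2.84 (6.6e-07) and TPM2 by 1.27 (0.005). CALD1, SMTN and MYLK did not pass, though SMTN did without C2-Mes replicate 1 (-0.62, adjusted p = 0.018), and ACTG2, with no reads in C2-Epi, had a difference of 4.30 with an SE of 26.2.

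The sgKMT2D transition also differed from that of C2 in 5 members, against a background of 12.3% higher and 11.8% lower (24.1% in either direction). TAGLN (2.75, adjusted p = 6.7e-05), MYL9 (1.86, 4.3e-05), ACTA2 (1.19, 0.0076) and TPM1 (0.97, 0.0042) changed more in sgKMT2D cells. MYLK changed less there (-1.08, adjusted p = 0.003). This contrast and the one before share the C2 libraries. The ACTA2 call was lost without sgKMT2D-Epi replicate 1 (1.11, adjusted p = 0.051).

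The transitions of the edited lines share no library. The sgEED transition exceeded that of sgKMT2D in 6 members and fell below it in SMTN, against a background of 9.24% higher and 10.9% lower (20.1% in either direction). TAGLN differed by 3.79 (adjusted p = 5.4e-07), ACTG2 by 3.66 (0.0018), TPM1 by 1.96 (2.4e-05), ACTA2 by 1.66 (0.0011), MYLK by 1.02 (0.0053) and MYL9 by 0.98 (0.005). SMTN differed by -0.97 (adjusted p = 0.0066), which was lost with a correction for GC content and length (-0.45, adjusted p = 0.079).

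The mesenchymal groups were then compared with each other. Against C2-Mes, sgEED-Mes was higher in 8 members and lower in SMTN (background 21.7% higher and 20.2% lower, 41.9% in either direction). TAGLN was 1139-fold higher (log2 difference 10.15 ± 0.28 SE, adjusted p = 2e-11), TPM1 45.6-fold (5.51 ± 0.18, 5.1e-11) and MYL9 28.0-fold (4.81 ± 0.17, 1.4e-10). ACTG2 had 6864 counts summed over the sgEED-Mes libraries and 5 over the C2-Mes libraries, a ratio of 1320 per unit of depth with an exact 95% interval of 566 to 4070 that covers counting error only. ACTA2 was 2.28-fold higher in sgEED-Mes (adjusted p = 0.00033) and TPM2 3.41-fold (adjusted p = 9.8e-06). SMTN was lower by a log2 difference of -0.85 (adjusted p = 0.00056), CALD1 was higher by 0.96 (0.011) and MYLK by 0.60 (0.007). These calls were lost with only these groups fitted (adjusted p = 0.07, 0.054 and 0.18 in turn). Those of CALD1 and MYLK were also lost without C2-Mes replicate 2 (0.62 and 0.37) and without sgEED-Mes replicate 2 (0.89 and 0.44). That of CALD1 was lost without sgEED-Mes replicate 1 as well (0.97).

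Against C2-Mes, sgKMT2D-Mes was higher in 5 members and lower in SMTN (background 16.2% higher and 17.2% lower, 33.4% in either direction). TAGLN was 102.9-fold higher, TPM1 10.97-fold, MYL9 8.46-fold and TPM2 1.74-fold, and ACTG2 had 396 against 5 counts, a ratio of 82.0 (95% interval 34.8 to 254). SMTN was lower in sgKMT2D-Mes by a log2 difference of -0.92 (adjusted p = 0.00045). The TPM2 and SMTN calls were lost with only these groups fitted (adjusted p = 0.15 and 0.056). ACTA2 did not pass (0.43, adjusted p = 0.12) but did without C2-Mes replicate 1 (0.85, adjusted p = 0.00077), and MYLK (-0.24, adjusted p = 0.27) did without C2-Mes replicate 2 (-0.47, adjusted p = 0.019). This comparison shares the C2-Mes libraries with the one before.

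Against sgKMT2D-Mes, sgEED-Mes was higher in 8 members (background 17.7% higher and 13.4% lower, 31.1% in either direction). The log2 differences were 4.00 for ACTG2 (adjusted p = 2e-07), 3.47 for TAGLN (1.9e-08), 2.06 for TPM1 (3e-07), 1.73 for MYL9 (1.3e-06) and 0.97 for TPM2 (0.0022). MYLK (0.84, adjusted p = 0.0011), ACTA2 (0.76, adjusted p = 0.011) and CALD1 (0.89, adjusted p = 0.023) followed. The ACTA2 and CALD1 calls were lost when 1 of these 4 libraries was left out, ACTA2 in 3 of 4 cases (adjusted p up to 0.097) and CALD1 in 4 of 4 (up to 0.13). SMTN overlapped between the groups (0.06, adjusted p = 0.80).

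Some members already differed among the epithelial groups. In sgEED-Epi against sgControl 5 members rose and ACTA2 fell, while 24.3% of all genes rose and 24.6% fell (48.8% in either direction). In sgKMT2D-Epi against sgControl 5 rose and 2 fell, while 25.3% rose and 30.7% fell (56.0% in either direction). Both comparisons use the same sgControl libraries, so they are not independent, and each is given with its own values.

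ACTA2 had 16.2 and 19.1 CPM in sgEED-Epi and 30.9 and 35.0 CPM in sgKMT2D-Epi, against 98.4 and 110.0 CPM in sgControl. The log2 changes were -2.56 ± 0.22 (SE; adjusted p = 9.1e-07) in sgEED-Epi and -1.66 ± 0.21 (adjusted p = 1.8e-05) in sgKMT2D-Epi. With C1 as the control, at 59.8 and 55.3 CPM, ACTA2 stayed lower in both. TPM1 had 253 and 267 CPM in sgEED-Epi and 253 and 233 CPM in sgKMT2D-Epi, against 93.2 and 98.0 CPM in sgControl (log2 changes 1.44, adjusted p = 5.9e-06, and 1.35, adjusted p = 7e-06). MYL9 had 19.2 and 22.5 CPM in sgEED-Epi and 11.7 and 13.2 CPM in sgKMT2D-Epi, against 6.001 and 7.54 CPM in sgControl (1.62, adjusted p = 3.6e-06, and 0.88, adjusted p = 0.0004). TAGLN had 10.7 and 13.4 CPM in sgEED-Epi and 14.8 and 15.4 CPM in sgKMT2D-Epi, against 5.75 and 4.54 CPM in sgControl (1.23, adjusted p = 0.00019, and 1.55, adjusted p = 2e-05). Thus TPM1, MYL9 and TAGLN were higher, and ACTA2 lower, in the epithelial cells of each guide.

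SMTN had 35.8 and 42.9 CPM in sgKMT2D-Epi, against 100.04 and 103.5 CPM in sgControl (log2 change -1.37 ± 0.16 SE, adjusted p = 8.8e-06). In sgEED-Epi it had 76.2 and 84.9 CPM (-0.34, adjusted p = 0.085), and with C1 as the control it was called lower there (-0.71, adjusted p = 0.0046). CALD1 was called higher in sgEED-Epi (1.05, adjusted p = 0.0061) and sgKMT2D-Epi (1.14, adjusted p = 0.0029) than in sgControl, at 201 and 152 CPM. Both CALD1 calls were lost with the GC correction (0.20, adjusted p = 0.36, and 0.31, adjusted p = 0.15) and with C1 as the control (0.34, adjusted p = 0.39, and 0.44, adjusted p = 0.21). MYLK was called higher in sgEED-Epi (0.48, adjusted p = 0.023) and sgKMT2D-Epi (0.65, adjusted p = 0.0031), but with C1 as the control its change was -0.19 and -0.02 and did not pass. TPM2 and ACTG2 did not pass in either comparison. With C1 as the control ACTG2 was called in both (adjusted p = 0.027 and 0.043), on 10 and 7 counts in sgEED-Epi and 6 and 7 in sgKMT2D-Epi, against 2 and 0 in C1.

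In C2-Epi against C1, the unedited epithelial states, 4 members fell (background 12.4% higher and 18.3% lower, 30.7% in either direction). TAGLN had 1.19 and 0.769 CPM in C2-Epi, against 6.41 and 6.59 CPM in C1, a log2 change of -2.72 ± 0.24 (SE; adjusted p = 2.8e-06). TPM1 had 43.4 and 43.2 CPM in C2-Epi, against 93.5 and 91.6 CPM in C1 (-1.10, adjusted p = 0.00014). MYLK had 39.5 and 36.4 CPM in C2-Epi, against 68.7 and 68.3 CPM in C1 (-0.85, adjusted p = 0.0014). The fall of MYL9 (-0.74, adjusted p = 0.0042) was lost with the GC correction (-0.17, adjusted p = 0.56). Its call was also lost without C1 replicate 2 (-0.59) and without C2-Epi replicate 1 or 2 (-0.65 each).

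In sgControl against C1 2 members differed: ACTA2 rose (0.86, adjusted p = 0.0076) and MYLK fell (-0.67, adjusted p = 0.0076), against a background of 13.3% higher and 13.8% lower (27.1% in either direction). Of the called genes 49.1% were higher, or 38.5% without scaling beyond library totals. This comparison shares the C1 libraries with the one before. The number of members called ranged from 1 to 5 as single libraries were left out. ACTA2 lost its call without either C1 library (adjusted p = 0.058 and 0.083) or sgControl replicate 2 (0.084). MYLK lost its call without sgControl replicate 2 (-0.60, adjusted p = 0.077) and with the GC correction (-0.43, adjusted p = 0.052).

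**Figure D3:**
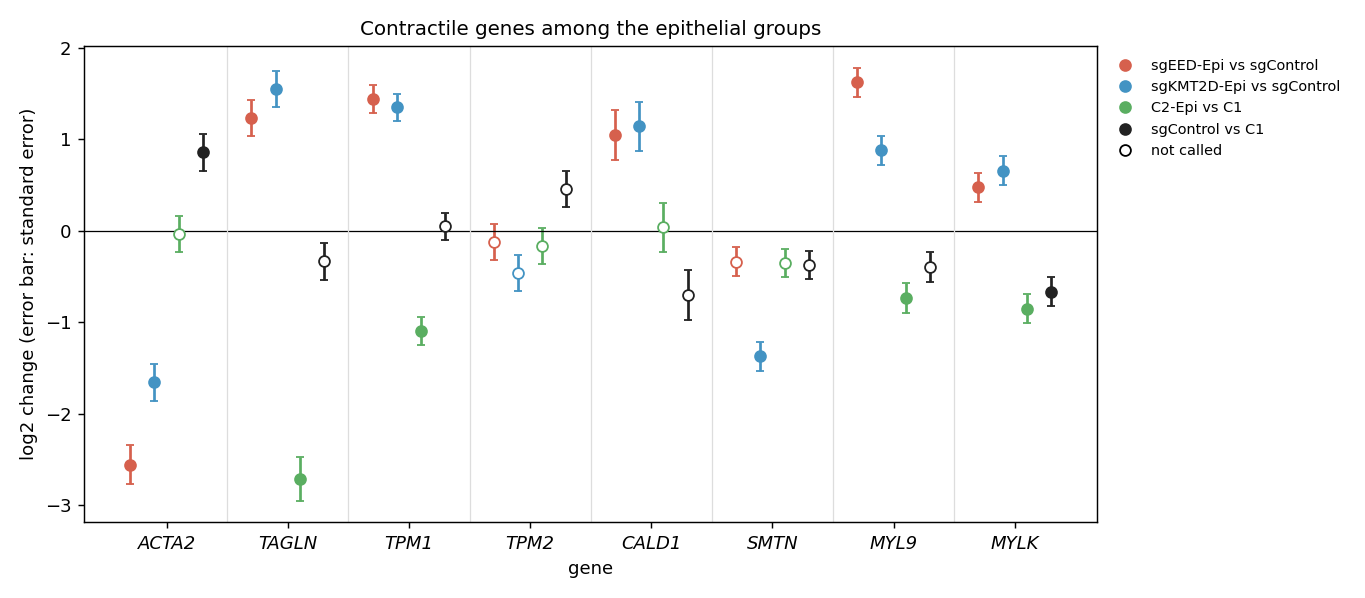
Log2 change of 8 contractile genes in 4 comparisons of epithelial groups; bars are standard errors and open circles mark genes not called. ACTA2 is lower in sgEED-Epi (-2.56) and sgKMT2D-Epi (-1.66) than in sgControl while TPM1, TAGLN and MYL9 are higher.

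Set in order over the 8 groups, the members fell into different patterns. TAGLN, TPM1, TPM2, MYL9, ACTG2 and ACTA2 had sgEED-Mes first and sgKMT2D-Mes second. For ACTA2 the second place was not distinct, since sgKMT2D-Mes (107.7 ± 0.004 CPM, SD, n = 2) overlapped the sgControl range (104.2 ± 8.14 CPM), and the lowest group was sgEED-Epi. TPM1 and TAGLN had the C2 groups at the bottom, with TPM1 at 32.7 ± 6.68 CPM in C2-Mes and 43.3 ± 0.16 CPM in C2-Epi (SD, n = 2 each). SMTN had C1 first (132 ± 5.90 CPM), then C2-Epi and sgControl, which overlapped. Its 3 lowest groups, sgEED-Mes, sgKMT2D-Mes and sgKMT2D-Epi, overlapped in turn. CALD1 and MYLK had sgEED-Mes first and overlapping groups in the middle.

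Levels of different genes can be compared only per length, here as CPM per kilobase of merged exons. Merged exons hold those of every annotated isoform, 22167 bases for MYLK, 12876 for TPM1 and 3248 for TPM2. Genes with long merged exons can thus rank too low, and the order depends on the annotation. In sgEED-Mes TPM2 led with 368 CPM per kilobase, then TAGLN (232.5), MYL9 (120.3) and TPM1 (116.0). CALD1 (72.8), ACTA2 (61.4) and ACTG2 (35.6) followed, and MYLK (5.89) and SMTN (4.35) were low. In sgKMT2D-Mes TPM2 (188) led CALD1 (39.2), MYL9 (36.4) and ACTA2 (36.2), and in C2-Mes TPM2 (107.8) led CALD1 (37.4) and ACTA2 (27.0). In C1 the order was TPM2 (73.6), CALD1 (29.2) and ACTA2 (19.3), with TAGLN at 1.66 CPM per kilobase. TPM2 was the leading member per length in all 8 groups, and CALD1 came second in each except sgEED-Mes and sgControl, where TAGLN and ACTA2 did.

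The genes whose group means most resembled each member were found by the root mean square difference of centred log2(CPM + 0.5) over the 8 groups. For ACTA2 they were MAGED2 (0.32), LTBP2 (0.36) and ADAMTS7 (0.37), and for MYL9 they were MMP24 (0.36), SLC1A1 (0.56) and CAMK1D (0.56). For ACTG2 they were GDF6 (0.37), CCN4 (0.50) and ALPL (0.61), and for TAGLN they were CRMP1 (0.84), ANKRD1 (1.05) and IGFBP7 (1.07). The nearest to TPM1 was MSC (0.45), to TPM2 ZBTB46 (0.23), to CALD1 GGH (0.14), to SMTN MYO18A (0.18) and to MYLK TMEM106A (0.18). The nearest other member was mostly farther than these genes, though ACTG2 was closer to TAGLN than IGFBP7 was. The search outside the members covered all protein-coding genes that reached 5 CPM in a group, far more candidates than the members. A nearer match there was likely from the start, so how alike the members are cannot be judged from it. The nearest member to TAGLN was ACTG2 (1.06), to MYL9 it was TPM1 (0.95), to ACTG2 MYL9 (0.98), to ACTA2 TPM2 (0.70) and to CALD1 MYLK (0.30). These distances describe 8 means from the libraries tested above and carry no test.

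Of the smooth muscle regulators, 19 of 20 were measured, and 7, 9 and 3 rose while 2, 3 and 6 fell in the sgEED, sgKMT2D and C2 transitions. Over all genes 36.5%, 50.8% and 39.6% were called in these transitions, the shares against which this and the following lists are to be read. SRF itself had 71.6 ± 11.4 CPM in sgEED-Mes, against 72.0 ± 7.98 CPM in sgEED-Epi (SD, n = 2 each), with a log2 change of -0.01. It fell by 0.49 in C2-Mes against C2-Epi (adjusted p = 0.015), and its group means lay between 48.5 and 87.0 CPM. MYOCD, the gene of myocardin, was read in sgEED-Mes with 13 and 12 counts and had 0 counts in the other 14 libraries. Against a floor of 3 counts per library in sgEED-Epi this is at least 4.55-fold higher, at a level of 0.50 CPM. MYOCD passed the low-count filter only through the sgEED-Mes libraries. MRTFA rose in the sgEED transition (0.52, adjusted p = 0.034), and MRTFB fell in that of C2 (-0.58, adjusted p = 0.029). CSRP1, a LIM protein of the actin cytoskeleton, rose in all 3 (1.18, 1.57 and 1.44), as did the mesenchymal homeobox gene PRRX1 (5.23, 8.66 and 11.34). KLF4, a repressor of contractile genes in smooth muscle, fell in sgEED-Mes (-1.41) and rose in C2-Mes (1.34).

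**Figure D4:**
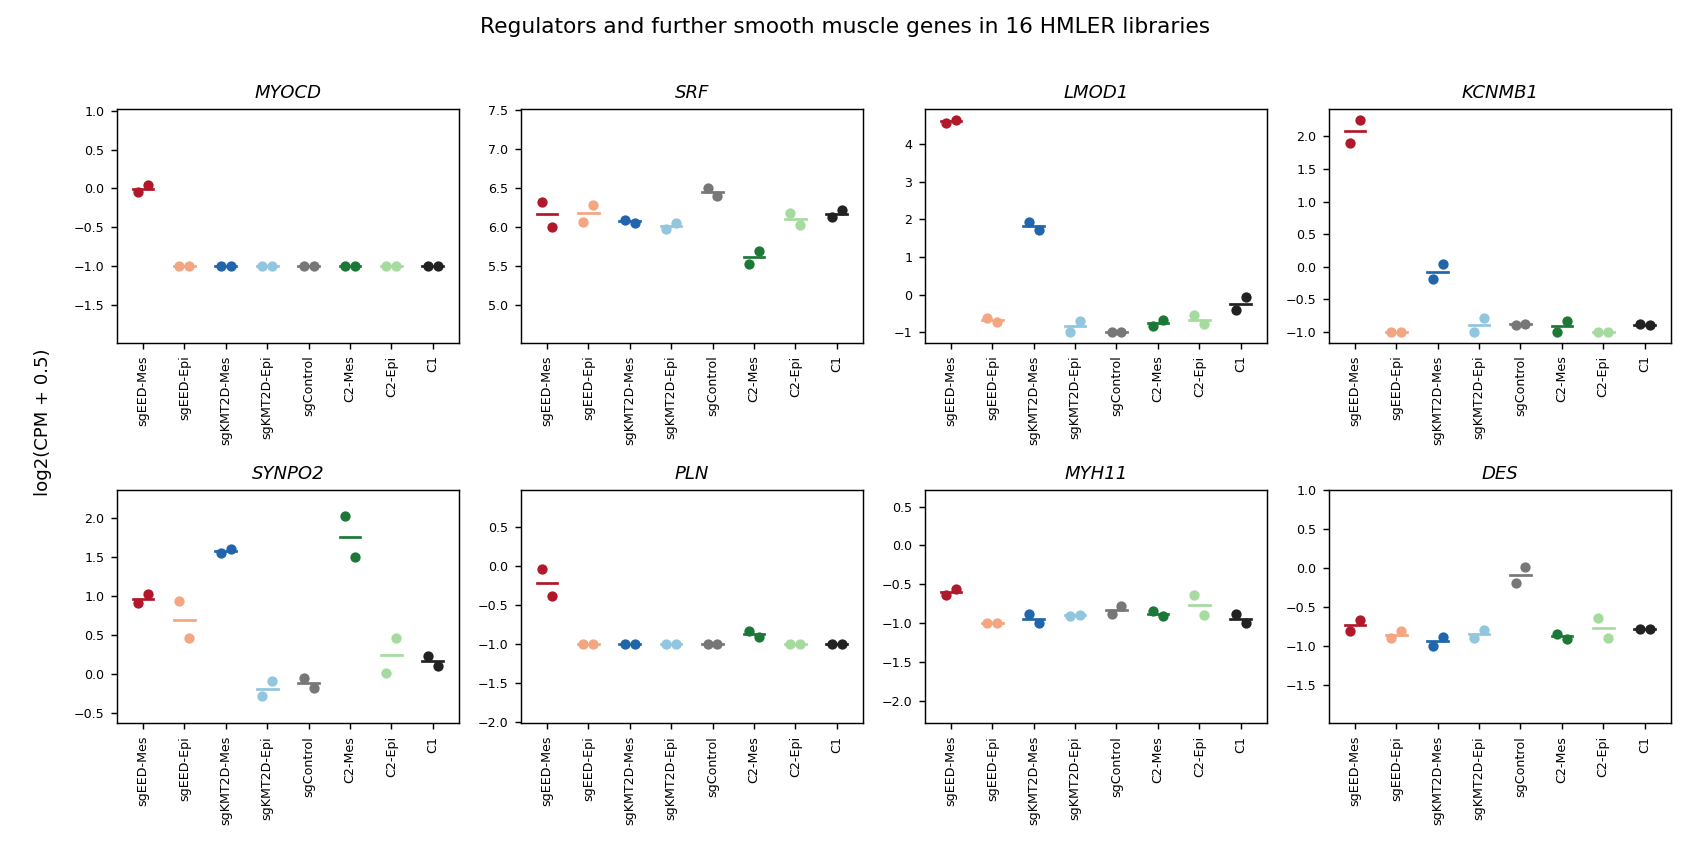
Each point is 1 of 16 libraries and each bar a group mean of log2(CPM + 0.5) for 2 regulators (MYOCD, SRF) and 6 further smooth muscle genes. MYOCD was read only in the sgEED-Mes libraries (13 and 12 counts), LMOD1 and KCNMB1 are highest there, and MYH11 and DES reach at most 0.176 and 0.514 CPM in any library.

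Other smooth muscle genes moved in the same 3 transitions. Of 26 further contractile genes 20 were measured, and 12, 9 and 7 rose while 1, 3 and 2 fell in sgEED, sgKMT2D and C2. LMOD1, whose product leiomodin nucleates actin, had 1206 counts over the sgEED-Mes libraries and 7 over those of sgEED-Epi, and stood at 24.1 ± 0.98 CPM in sgEED-Mes and 0.129 ± 0.033 CPM in sgEED-Epi (SD, n = 2 each). It rose in sgKMT2D-Mes as well, to 3.07 ± 0.39 CPM, against 0.0598 ± 0.085 CPM in sgKMT2D-Epi. KCNMB1, a subunit of the smooth muscle potassium channel, had 3.75 ± 0.74 CPM in sgEED-Mes and no reads in sgEED-Epi, at least 34.2-fold higher. Outside sgEED-Mes and sgKMT2D-Mes, LMOD1 had at most 11 counts in a library and KCNMB1 at most 2. Both thus passed the filter through groups where they were high. CRYAB, a small heat shock protein of muscle, rose to 35.2 ± 0.78 CPM in sgEED-Mes, against 1.26 ± 0.11 CPM in sgEED-Epi.

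Definitive markers of mature smooth muscle stayed low. MYH11, the smooth muscle myosin heavy chain, had at most 4 counts in any library, and DES, the gene of desmin, had at most 12, in sgControl replicate 2. Neither gene, like CNN1, passed the filter. The name of the group describes the genes and not the cells, which are not called smooth muscle here.

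Of the 23 non-muscle relatives of the members 19 were measured, and 5, 6 and 4 rose and 2, 3 and 5 fell in the sgEED, sgKMT2D and C2 transitions, near the shares of 36.5%, 50.8% and 39.6% over all genes. TPM4 rose in all 3 (1.08, 1.04 and 1.08) and TMOD1, a capping protein of actin, did so too (4.28, 3.53 and 3.34), while TAGLN3 fell in all 3 (-2.25, -2.14 and -2.68). MYL6, the essential myosin light chain, had a log2 change of 1.11 in sgEED-Mes. MYL6 and ACTG1 are also on the list of further contractile genes and count in both lists. Other lists share genes too, such as FHL2 and SMAD3. Of 23 genes of RhoA signalling and light chain phosphorylation 1, 4 and 6 rose and 3, 4 and 3 fell. PPP1R14C, a protein phosphatase inhibitor, fell in all 3 (-1.99, -5.43 and -6.44), as did LIMK2 (-1.01, -1.15 and -2.78). DAPK1 of the same list changed direction: it fell in sgEED-Mes (-5.26) and rose in sgKMT2D-Mes (5.61) and C2-Mes (2.13). Its level was low in the EED guide, at 2.46 CPM in sgEED-Epi and 0.0544 CPM in sgEED-Mes. Among 22 actin bundling and adhesion genes 10, 9 and 8 rose and 3, 3 and 3 fell, with ITGA5 (2.08, 1.74 and 2.35) and FERMT2 (1.73, 1.32 and 1.68) in all 3.

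Of 20 matrix and TGF-beta genes 12, 10 and 9 rose and 1, 3 and 5 fell. COL3A1 rose in all 3 transitions (7.65, 8.64 and 11.09), whereas TGFBI, a TGF-beta target, rose in sgEED-Mes (2.38) and fell in sgKMT2D-Mes (-4.56) and C2-Mes (-2.64). POSTN, a matrix protein of activated fibroblasts, had 473 ± 160 CPM in sgEED-Mes, against 0.0762 ± 0.11 CPM in sgEED-Epi. It had 3.65 ± 2.27 CPM in C2-Mes, against 0.0361 ± 0.051 CPM in C2-Epi.

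Markers of other cell types were read beside these results. Of 7 pericyte markers 5, 4 and 6 rose in the sgEED, sgKMT2D and C2 transitions, and their sum ranged from 521 to 695 CPM in sgEED-Mes, against 209 to 235 CPM in sgEED-Epi. Among those that rose in sgEED-Mes were PDGFRB (log2 change 5.71), RGS5 (2.59), NOTCH3 (1.79) and CSPG4 (0.99). The channel genes ABCC9 and KCNJ8, also on this list, were at or near 0 in sgEED-Mes (0.0440 and 0.135 CPM) and stood at 12.3 and 1.06 CPM in C2-Mes. Of 7 basal or myoepithelial markers 5, 5 and 6 fell and 1, 2 and 1 rose. Their sum was 886 to 1082 CPM in sgEED-Mes, against 7360 to 8725 CPM in sgEED-Epi. The marker that rose in sgEED-Mes, singled out after its values were seen, was OXTR, the oxytocin receptor of contracting myoepithelium and uterus, at 71.5 CPM, against 5.84 CPM in sgEED-Epi. The 6 mammary luminal markers summed to 1184 to 1389 CPM in sgEED-Mes, against 1403 to 1640 CPM in sgEED-Epi. Their sum was far lower in the other mesenchymal groups, at 59.6 to 66.5 CPM in sgKMT2D-Mes and 89.1 to 89.6 CPM in C2-Mes. MYOD1 and MYF5, which define skeletal muscle, had 0 counts in all 16 libraries, and the 23 skeletal and cardiac genes summed to 57.8 to 58.9 CPM in sgEED-Mes, against 45.6 to 55.8 CPM in sgEED-Epi. In C2-Mes they summed to 143 to 147 CPM, of which the giant sarcomere gene TTN made up 112 CPM. The 5 endothelial markers summed to at most 30.7 CPM and the 5 leukocyte markers to at most 0.284 CPM in any library. The part of pericyte, basal and luminal markers in the results was not tested.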

How the data were processed

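RNA from 16 HMLER libraries was sequenced, and the authors deposited raw read counts per gene. Reads were aligned with STAR 2.7.1a to GRCh38 and counted with featureCounts, per the submitters' processing notes. Strand setting, treatment of multimapping reads and annotation release are not given in the sources used here, so reads of overlapping or near-identical genes cannot be told apart. Genes were named from GENCODE annotation by Ensembl identifier.

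Counts were filtered (filterByExpr) and tested with edgeR 4.0.16 (R 4.3.3): TMM scaling, robust quasi-likelihood fit of 8 group means over all 16 libraries (8 residual degrees of freedom), 10 pairwise contrasts and 3 differences of transitions, with Benjamini-Hochberg adjustment over 18285 genes and calls at 0.05. The script was tested on simulated data. Alternatives were DESeq2 1.42.0, other scalings, no filter, a GC and length correction, only the groups compared, a replicate block, C1 for sgControl and each library left out. Same-numbered libraries showed no common deviation over 28 group pairs (median r = -0.0096), but r ran from -0.432 to 0.437 and exceeded 0.1 in 9 pairs. The main fit did not pair libraries by number, and pairing within some groups is not excluded.

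Members and lists were chosen with earlier results of these data known. Named besides the members are the regulators, up to 4 called genes per list and transition that reached 1 CPM in either group, by size of log2 change, and the 3 genes most like each member. One result under this rule is not reported here. Intervals and floors cover counting error only.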

Additional observations from a re-analysis of the deposited data

Results flagged for a closer look

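Differences between transitions, taken as one log2 change minus another with edgeR's quasi-likelihood test, passed the threshold for 17 values of the members. Between the sgEED and C2 transitions these were TAGLN (6.543, adjusted p = 3.2e-08), TPM1 (2.927), ACTA2 (2.857), MYL9 (2.843) and TPM2 (1.274). Each was higher in the sgEED transition, and TAGLN and TPM1 had negative changes in C2 cells.

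Between the sgKMT2D and C2 transitions they were TAGLN (2.753), MYL9 (1.861), ACTA2 (1.193) and TPM1 (0.966), higher in sgKMT2D cells, and MYLK (-1.076), lower there. Between the sgEED and sgKMT2D transitions they were TAGLN (3.789), ACTG2 (3.658), TPM1 (1.962), ACTA2 (1.663), MYLK (1.016) and MYL9 (0.982), higher in sgEED cells, and SMTN (-0.972), lower there. The contrasts share libraries in pairs, so the 17 values are not independent.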

How the results depend on the processing

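Of 832 member values under alternatives that kept all libraries, 783 kept their side of the threshold, 21 lost and 26 gained a call with the same sign, and 2 called values changed sign. Of 1872 values with one library left out, 1789 kept their side of the threshold and 47 lost and 36 gained a call with the same sign. Values called in neither fit could also change sign, such as ACTA2 in C2-Mes against C2-Epi (0.51, and -0.01 without C2-Mes replicate 1), and are not counted as reversed. The reversed called values were those of MYLK with C1 in place of sgControl, an alternative chosen after seeing the data: -0.19 in sgEED-Epi and -0.02 in sgKMT2D-Epi, and genes called in sgEED-Epi then numbered 4601 instead of 8930. The cause was not tested. In sgControl against C1, 4 members were called without scaling, 4 with DESeq2 and 5 with only the groups fitted, instead of 2. With only the groups fitted, which also changes the genes that pass the filter (8 instead of 9 members and 16009 instead of 18285 genes tested for C2), 2 instead of 5 members and 3361 instead of 7246 genes were called in C2-Mes against C2-Epi. Genes called then numbered 9967 instead of 5620 in C2-Epi against C1, 3567 instead of 7664 in sgEED-Mes against C2-Mes, 2112 instead of 6103 in sgKMT2D-Mes against C2-Mes, and 2130 instead of 3866 in the sgEED minus C2 transition.

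With one library left out, members called ranged from 2 to 6 in C2-Mes against C2-Epi and from 1 to 5 in sgControl against C1. Genes called ranged from 2629 to 7950 in C2-Epi against C1, from 2226 to 6987 in sgControl against C1, from 4042 to 8249 in sgKMT2D-Mes against C2-Mes and from 3556 to 7552 in sgEED-Mes against sgKMT2D-Mes. For the sgKMT2D minus C2 transition the range was 3095 to 6749, and for sgEED minus sgKMT2D it was 2293 to 5467. The highest counts of genes came without a C2-Mes library, replicate 1 or 2, and the lowest without a library of the groups compared. Same-numbered libraries were not paired by the labels, and their deviations correlated at -0.432 to 0.437. With the replicate block, 7138 genes were called in the C2 transition, 6558 in that of sgEED and 9197 in that of sgKMT2D, and the count of members called differed in one comparison, sgControl against C1 (3 instead of 2).

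Depth limits CNN1, MYOCD and, in epithelial and C2 cells, ACTG2, which lie near the floor of 3 counts. With 2 libraries a group, a single library decides some calls of CALD1, TPM2, ACTA2, MYL9, TPM1, MYLK, SMTN and ACTG2.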
